A study of Mus musculus with 203 samples.

Results

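Matrix metalloproteinases (MMPs) are zinc-dependent enzymes that cut collagens, elastin and other proteins of the extracellular matrix, and tissue inhibitors of metalloproteinases (TIMPs) bind and block them. Macrophages use MMPs to move through tissue, to remodel scars and plaques, and to process cytokines, and the balance of enzyme and inhibitor helps to set how much matrix is lost. The genes described here are Mmp2, Mmp8, Mmp9, Mmp12, Mmp13, Mmp14, Mmp19, Timp1, Timp2 and Timp3, chosen by symbol. All 10 were listed among the 25094 genes of the RNA-seq table from RAW264.7 cells and among the 16478 genes of the table from bone-marrow-derived macrophages.

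RAW264.7 is a mouse macrophage line with the strain label BALB/c. In the experiment analysed, cells carried a lentiviral short hairpin against GFP (shGFP, the control) or against Kdm1a (shKDM1A), which encodes a histone demethylase, and were either left without interleukin 4 (IL4) or given 20 ng/ml IL4 for 6 h. IL4 is the cytokine that drives the alternative activation of macrophages through the factor STAT6. Each of the 4 groups held 4 libraries, 16 in all. Every group carried a hairpin and had been selected with puromycin, Kdm1a was targeted by 1 hairpin sequence, and no source states that the 4 libraries of a group came from separately made lines, so the p-values measure the spread between these libraries. The table from bone-marrow-derived macrophages, wild type or lacking Gps2, gives no value per library but only comparisons already computed, so values from those cells were not analysed here.

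The deposited value of a gene is on a log2 scale and is moderated for low counts, which pulls the libraries of a weakly detected gene towards each other. Among the 610 genes with a mean value from 1 to 2, no difference in the 4 comparisons between groups went beyond -0.0819 or 0.0871, whereas among the 936 genes with a mean from 7 to 8 the differences between shKDM1A and shGFP cells without IL4 ran from -2.35 to 1.55. Differences of weak genes are therefore understated, and a small number does not mean a small change in RNA. Genes with no tag were listed at exactly 0, which was the case for 8488 genes, while the most weakly detected genes stood at negative values, 921 of them near -2.27 and 498 near -2.09. A gene listed at 0 in every library therefore has no measured level.

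Library depth ran from 17554721 to 27782568 tags, and the median SD between libraries of a group was 0.0371 to 0.0481 over the 12905 genes tested, which reached a value of 1 or more in 4 or more libraries. Kdm1a itself averaged 11.18 ± 0.04 (SD, n = 4) in shGFP cells and 10.30 ± 0.05 in shKDM1A cells without IL4, and 11.10 ± 0.03 and 10.32 ± 0.03 with IL4, with no overlap between the hairpins (differences of -0.88 and -0.79, limma adjusted p = 5.6e-13 and 2.2e-12). Mrc1, a mannose receptor induced by IL4, went from 5.51 ± 0.02 to 6.83 ± 0.06 in shGFP cells given IL4, so the IL4 response is visible in these libraries. All 8 macrophage markers examined were well detected (for example Csf1r at 15.2 and Cd68 at 13.7), whereas 5 of the 7 fibroblast markers and all 4 mast cell markers were listed at 0. The defining fibroblast markers Dcn, Lum and Postn were among those at 0. Pdgfra and Col1a1, the other fibroblast markers, stood at -2.27 and -1.73.

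The MMP and TIMP genes were expressed at low levels or not detected in RAW264.7 cells. Only 5 of the 10 reached the level needed for testing: Mmp19, Mmp2, Timp2, Mmp9 and Mmp12. Their means over the 16 libraries were 7.23, 4.28, 3.85, 3.50 and 1.54 on the deposited log2 scale, against a median of 9.24 for all genes tested, and 28.2%, 14.5%, 12.7%, 11% and 2.56% of the tested genes lay below them. Of the other 5, Timp1 stood at 0.54, Mmp8 at -0.39, Mmp14 at -1.02 and Mmp13 at -2.09, and Timp3 was listed at 0 in all 16 libraries.

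To compare genes with each other, the level was taken per length, as the log2 value minus log2 of the transcript length in kilobases. In this order Mmp19 came first (5.52, from 5.35 to 5.62 over the libraries), followed by Mmp2 (2.66), Timp2 (2.00), Mmp9 (1.84), Timp1 (0.72), Mmp12 (-0.33), Mmp8 (-1.67), Mmp14 (-2.94) and Mmp13 (-3.50). No 2 neighbours in the order had overlapping libraries, although the gap between Timp2 (lowest library 1.95) and Mmp9 (highest library 1.94) was narrow. Because low values are moderated, the libraries of a weak gene lie close together, so a lack of overlap there does not by itself establish the order. The distances at the lower end of the order are likewise less certain than those at the top. The level of Mmp19 may include reads of an overlapping gene, as described below.

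**Figure D1:**
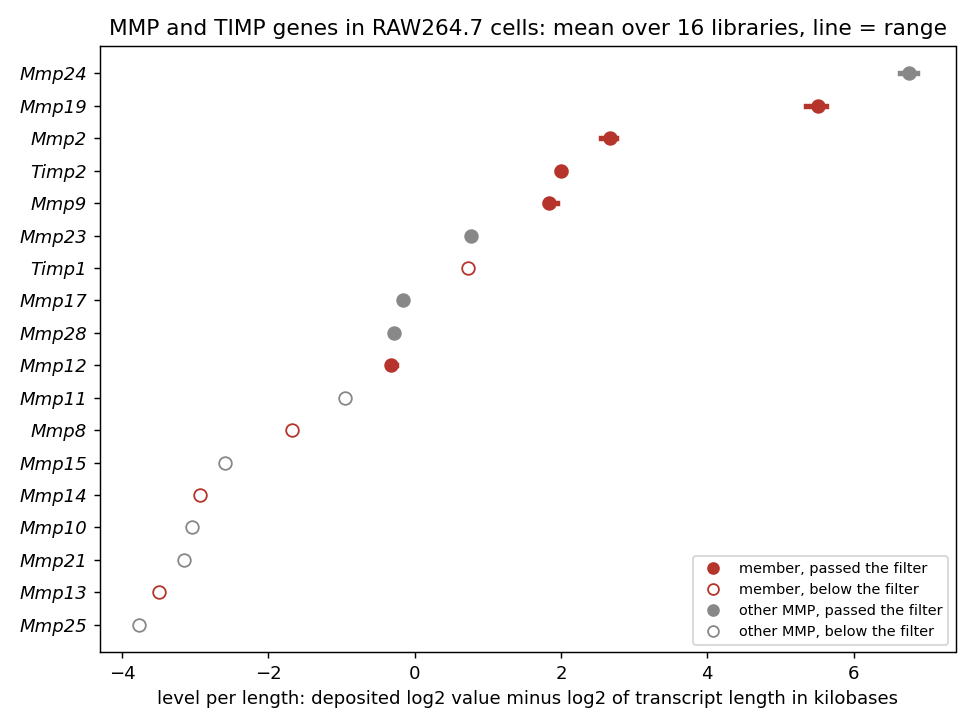
Level per length of the MMP and TIMP genes with a measured value in RAW264.7 cells; points are means over 16 libraries, lines span the lowest to the highest library, red marks the genes described here and open points lie below the test filter. Mmp19, at 5.52, is the highest of the 9 genes described that have a value, and Mmp24, at 6.76, is the only MMP above it.

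Of the gelatinases, which degrade denatured collagen and basement membrane, Mmp2 lies at chr8:95351196-95377320 on the plus strand and Mmp9 at chr2:164773719-164781350 on the plus strand (mm9). The collagenases Mmp8 and Mmp13, which cut fibrillar collagen, and Mmp12, the macrophage elastase, lie together at chromosome 9, on the plus strand at chr9:7558429-7568486, chr9:7272514-7283333 and chr9:7347374-7360461. Mmp14, a membrane-anchored MMP that activates the precursor of Mmp2, lies at chr14:55050435-55061293 (plus), and Mmp19 at chr10:128227966-128237883 (plus). Of the inhibitors, Timp1 lies at chrX:20447292-20451863 (plus), Timp2 at chr11:118162375-118216725 (minus) and Timp3 at chr10:85763157-85812250 (plus).

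The chromosome 9 locus holds 10 Mmp genes within 427 kb, from Mmp13 to Mmp7. Of the 11 genes the table lists there, 7 were at 0 in all libraries (Mmp1b, Mmp3, Mmp1a, Mmp27, Mmp20, Mmp7 and AV064505) and 4 had a measured value. Mmp12 was the only one of these 4 to pass the filter. Mmp10 stood at -2.27 and Mmp13 at -2.09, the lowest and the second lowest level at which detected genes bunched. In 14 of the 16 libraries Mmp13 lay between -2.0865 and -2.0858, and replicate 3 of shGFP with IL4 (-2.0832) and replicate 3 of shKDM1A with IL4 (-2.0833) stood above the rest.

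Promoter windows, taken from RefSeq on GRCm38.p6, were found for 7 of the 10 genes: Mmp8, Mmp12, Mmp13, Mmp14, Timp1, Timp2 and Timp3, with 2 windows for Mmp12. Mmp2, Mmp9 and Mmp19 had no entry. The 250 bases before each start were searched on both strands for 4 motifs. The AP-1 motif TGANTCA was present in 2 of the 8 windows, against 6.75% of all 32851 windows of this length. The STAT6 motif, TTC and GAA with 4 bases between them, was in none of the 8 (5.85% of all windows), the TATA box TATAAA was in 1 (Mmp13; 12.4% of all windows), and the GGAA core read by PU.1 and other ETS factors was in all 8 (93.4% of all windows). Of the 2 Mmp12 windows, that at chr9:7344147-7344396 held no AP-1 match, and neither did those of Mmp8, Mmp14, Timp1, Timp2 and Timp3. The 120 bases before the start are shown for the 2 windows with an AP-1 match, both from the chromosome 9 locus. They are given 5′ to 3′ on the plus strand of GRCm38.p6, with the AP-1 match in capitals; it overlapped none of the other motifs searched.
Mmp12, chr9:7347254-7347373: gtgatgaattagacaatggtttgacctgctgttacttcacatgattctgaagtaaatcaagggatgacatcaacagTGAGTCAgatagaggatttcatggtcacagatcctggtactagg
Mmp13, chr9:7272394-7272513: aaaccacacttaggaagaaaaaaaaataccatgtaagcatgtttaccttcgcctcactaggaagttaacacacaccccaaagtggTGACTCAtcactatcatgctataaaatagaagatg
The match begins 44 bases before the start in Mmp12 and 35 bases before it in Mmp13. The 2 genes that share this motif differed in level: Mmp12 was detected at 1.51 to 1.61, and Mmp13 at about -2.09. A match is a description of the letters and says nothing about binding in these cells.

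Mmp9 (gelatinase B) was the member that was higher in shKDM1A cells in both conditions. Without IL4 its values were 3.44, 3.45, 3.49 and 3.51 in the shGFP libraries and 3.60, 3.58, 3.53 and 3.52 in the shKDM1A libraries. Every shKDM1A library was above every shGFP library. The difference was 0.086 on the log2 scale (SE 0.025, 95% confidence interval 0.034 to 0.14, limma adjusted p = 0.011), which corresponds to 1.06-fold on the moderated scale. Here as elsewhere, a bulk library cannot tell fewer expressing cells from less RNA per cell.

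With IL4, Mmp9 was at 3.44, 3.47, 3.44 and 3.45 in shGFP cells and at 3.52, 3.52, 3.46 and 3.56 in shKDM1A cells. Replicate 3 of shKDM1A lay within the shGFP range and the other 3 lay above it. The difference was 0.068 (SE 0.025, limma adjusted p = 0.037). This call was lost without any 1 of 6 libraries: replicates 1, 3 and 4 of shGFP with IL4 (differences of 0.065, 0.065 and 0.067, limma adjusted p = 0.078, 0.082 and 0.069) and replicates 1, 2 and 4 of shKDM1A with IL4 (0.068, 0.066 and 0.054, adjusted p = 0.068, 0.070 and 0.112). It was also lost with the replicate number as a block (limma adjusted p = 0.051) and with only the groups compared in the fit (limma adjusted p = 0.054). The call without IL4 was kept whichever of the 16 libraries was left out.

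Mmp12 (macrophage elastase) was lower in shKDM1A than in shGFP cells in the presence of IL4. It stood at 1.61, 1.57, 1.56 and 1.54 in the 4 shGFP libraries with IL4 and at 1.52, 1.52, 1.54 and 1.52 in the shKDM1A libraries with IL4. The groups did not overlap, but the highest shKDM1A library (1.537) and the lowest shGFP library (1.542) were nearly level. The difference was -0.049 (SE 0.018, limma adjusted p = 0.038), among genes whose differences in this comparison spanned only -0.0819 to 0.0871. Leaving out 1 library ended the call in 5 cases: without shGFP with IL4 replicate 1 the difference was -0.035 (limma adjusted p = 0.134), without its replicate 2 it was -0.048 (limma adjusted p = 0.072), and without shKDM1A with IL4 replicate 1, 2 or 4 it was -0.047 each time (adjusted p = 0.077, 0.071 and 0.073). Of 6 processing alternatives 3 also ended it: centring the libraries on their medians (-0.039, limma adjusted p = 0.098), the replicate number as a block (limma adjusted p = 0.067) and a fit with only the groups compared (limma adjusted p = 0.109).

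Without IL4, Mmp12 was at 1.52, 1.53, 1.55 and 1.56 in shGFP cells and at 1.52, 1.52, 1.51 and 1.53 in shKDM1A cells. The groups overlapped and the difference was -0.021 (SE 0.018, limma adjusted p = 0.41). The interval ran from -0.058 to 0.017.

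Mmp19, which cleaves basement membrane proteins, had the highest level of the genes described, apart from Timp3, which has no measured level. Its counts may hold reads of an overlapping gene, as described below. Mmp19 was also the only one of the 10 genes that passed the test for IL4. Its values in shKDM1A cells were 7.31, 7.22, 7.33 and 7.26 without IL4 and 7.22, 7.06, 7.16 and 7.07 with IL4. Replicate 1 of the IL4 group lay level with the lowest library without IL4, and the other 3 were below all of them. The difference was -0.15 (SE 0.041, 95% confidence interval -0.23 to -0.063, limma adjusted p = 0.011), and it stayed past the threshold whichever library was left out, with adjusted p from 0.0030 to 0.040.

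In shGFP cells Mmp19 was at 7.33, 7.22, 7.21 and 7.31 without IL4 and at 7.19, 7.18, 7.30 and 7.27 with IL4. These ranges overlapped, with a difference of -0.034 (SE 0.041, limma adjusted p = 0.61). The IL4 response of Mmp19 was not shown to differ between the hairpins: the difference of the responses was -0.11 (SE 0.057, 95% confidence interval -0.24 to 0.0072, limma adjusted p = 0.25). Between the hairpins with IL4, Mmp19 differed by -0.10 (SE 0.041, limma adjusted p = 0.051), just short of the threshold. That comparison crossed the threshold without shGFP with IL4 replicate 1 or 2 (-0.12 each, limma adjusted p = 0.045 and 0.040) and without shKDM1A with IL4 replicate 1 (-0.14, limma adjusted p = 0.013). It also crossed it under 3 of 7 processing alternatives: a stricter filter, the replicate number as a block and quantile normalization (limma adjusted p = 0.042, 0.033 and 0.023).

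The counts of Mmp19 could hold reads of another gene. Tags were counted on both strands, and the 3′ end of Mmp19 overlaps Tmem198b, a gene on the opposite strand at chr10:128237092-128241503 (mm9); the gene model at that place shares 789 of the 3410 exonic bases of Mmp19. Tmem198b had a level close to that of Mmp19, 7.01 to 7.29, and moved the same way with IL4 in shKDM1A cells, from 7.21 ± 0.05 to 7.07 ± 0.05 (SD, n = 4; difference -0.14, SE 0.048, limma adjusted p = 0.042). In shGFP cells the difference of Tmem198b with IL4 was -0.010 (adjusted p = 0.92). Its part in the Mmp19 values was not tested, and the reads of the shared bases cannot be assigned to either gene.

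**Figure D2:**
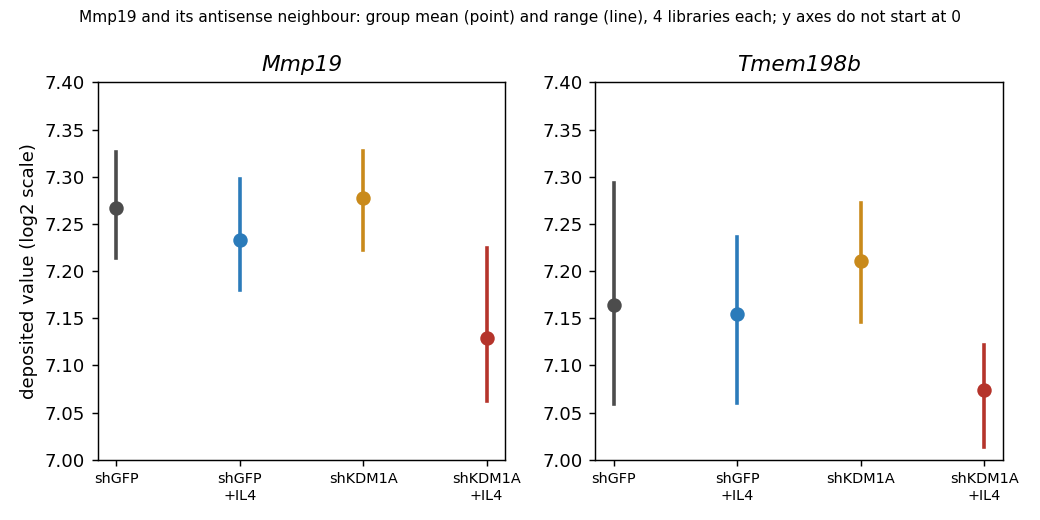
Deposited log2 values of Mmp19 and of Tmem198b, the overlapping gene on the other strand, in the 4 groups of RAW264.7 libraries; points are group means and lines span the 4 libraries of a group. Both genes have their lowest mean in shKDM1A cells with IL4, 7.13 for Mmp19 and 7.07 for Tmem198b.

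Mmp2 (gelatinase A) passed no test. Its means were 4.29 ± 0.04 in shGFP cells, 4.28 ± 0.04 in shGFP cells with IL4, 4.24 ± 0.05 in shKDM1A cells and 4.30 ± 0.06 in shKDM1A cells with IL4 (SD, n = 4 each). The libraries of all 4 groups overlapped. Its largest difference between 2 groups in a comparison was 0.059 (IL4 in shKDM1A cells, 95% confidence interval -0.010 to 0.13, limma adjusted p = 0.21).

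Timp2, which inhibits Mmp2 and also helps Mmp14 to activate it, was likewise level. The 4 group means lay between 3.83 and 3.86, with SDs of 0.024 to 0.042, and single libraries between 3.80 and 3.91. The intervals of its differences reached at most -0.073 and 0.071 over the 4 comparisons. On a scale on which genes of this level moved by at most 0.244 in any comparison, these intervals leave room for changes that are larger in RNA.

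Timp1, Mmp8 and Mmp14 stayed below the filter in all groups. Timp1, the inducible inhibitor, lay between 0.52 and 0.56 in the 16 libraries. Mmp8, the neutrophil collagenase, lay between -0.39 and -0.36, with its highest value in replicate 4 of shKDM1A without IL4, the deepest library (27782568 tags). Mmp14 lay between -1.020 and -1.003. In 5 of the 8 shGFP libraries it lay from -1.012 to -1.003, and in the other 3 and all 8 shKDM1A libraries from -1.020 to -1.018. In the fit without the filter, none of the 5 comparisons called any of these 3 genes, and the lowest adjusted p was that of Mmp14 between the hairpins with IL4 (-0.0096, limma adjusted p = 0.093).

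Timp1 lies inside Syn1 and Timp3 inside Syn3, both on the opposite strand. Syn1 was detected at 5.25 to 5.70 and Syn3 at 4.12 to 4.27, while Timp1 lay between 0.52 and 0.56 and Timp3 had no measured level. These values are not per length. Timp3 stayed at 0 although its gene model shares 1733 of 8144 exonic bases with Syn3.

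**Figure D3:**
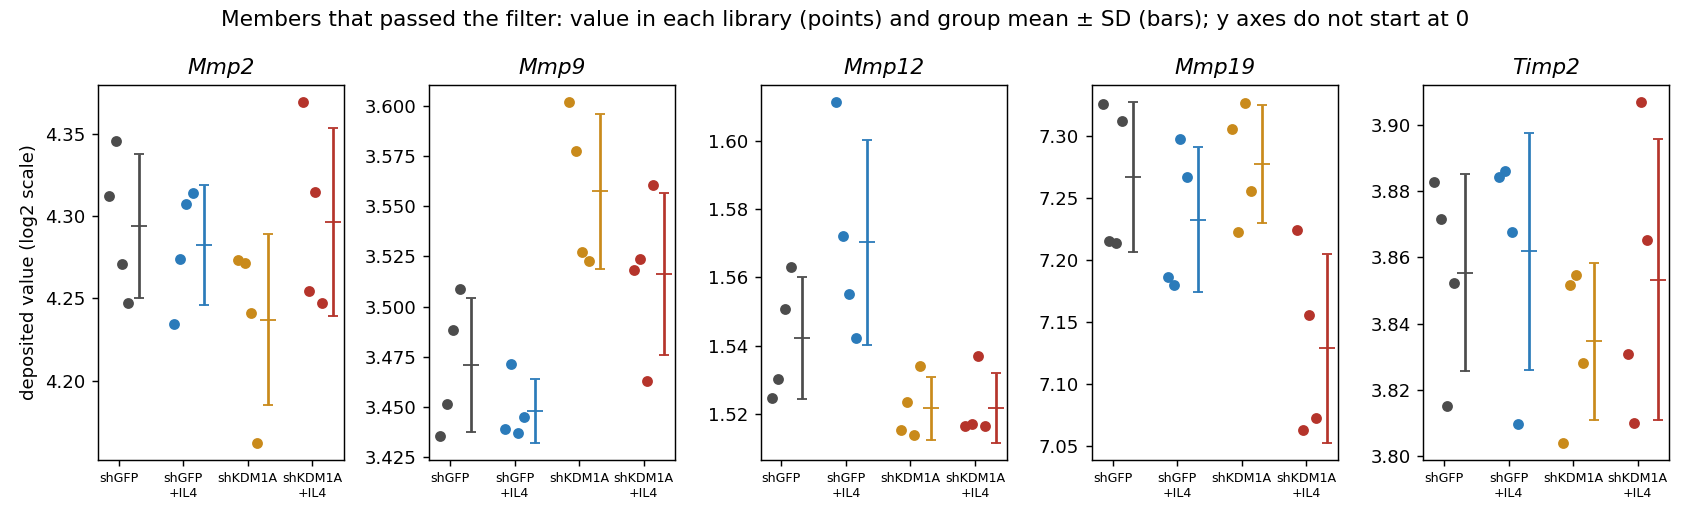
Deposited log2 value in each of the 16 RAW264.7 libraries for the 5 genes that passed the filter; points are libraries and the bars to their right give the group mean ± SD (n = 4). The shKDM1A libraries of Mmp9 without IL4 (3.52 to 3.60) lie above the shGFP libraries (3.44 to 3.51), while Mmp2 and Timp2 overlap in all groups.

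Counted together, 0 to 2 of the 5 tested genes were called in each comparison. Between the hairpins without IL4, 1 of the 5 tested was called (Mmp9, higher), while 38.2% of all tested genes were called (19.7% higher, 18.4% lower). With IL4, 2 of 5 were called (Mmp9 higher, Mmp12 lower), against 40.7% of all tested genes (20.9% higher, 19.8% lower). IL4 called 0 of 5 in shGFP cells by limma, and 0 of 5 also at an unadjusted p under 0.05, against 26.9% of tested genes (13.1% higher, 13.7% lower), and 1 of 5 in shKDM1A cells (Mmp19, lower), against 27.1% (13.6% higher, 13.5% lower). The difference of the IL4 responses called 0 of 5 (0 at an unadjusted p under 0.05), against 6.13% of tested genes. The median difference of the 5 genes was -0.021, -0.0086, -0.011 and 5.45e-05 in the 4 comparisons in that order, beside -0.0027, -0.0024, -0.00050 and -0.0025 over all tested genes. Since these 5 were mostly weak genes on a moderated scale, the shares are not evidence that the family responds less than others.

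**Figure D4:**
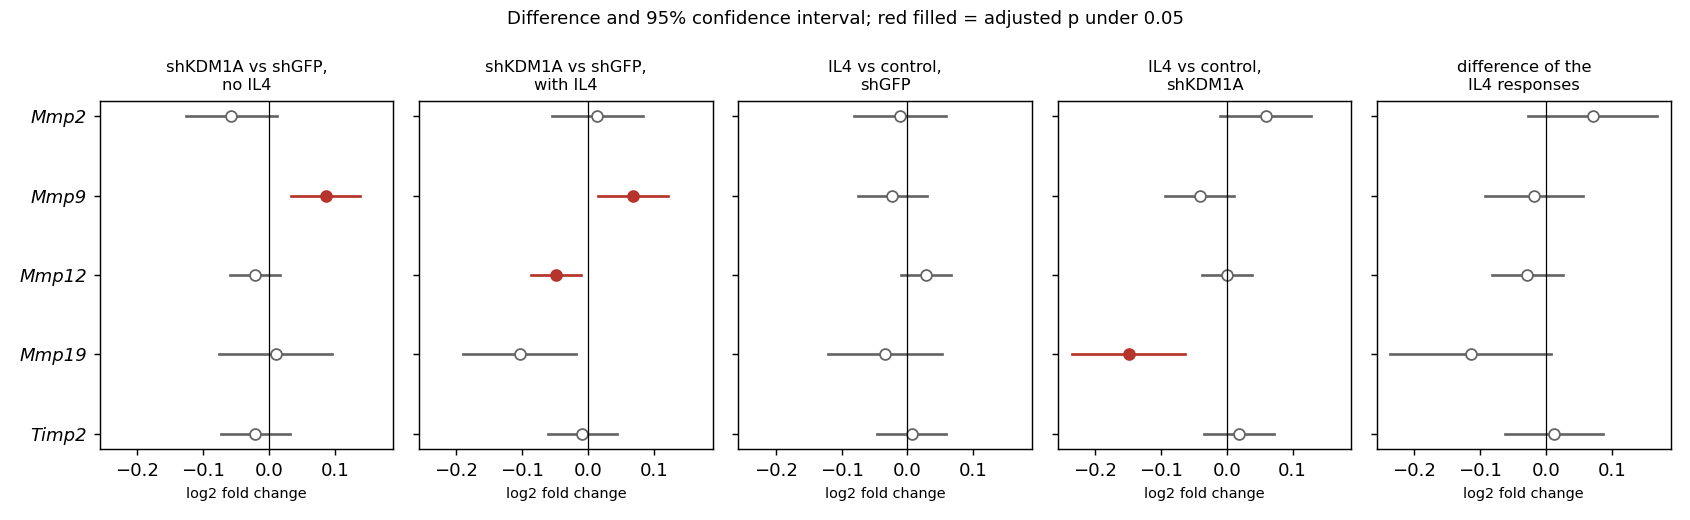
Differences in log2 value with their 95% confidence intervals for the 5 tested genes in 5 comparisons; red filled points have a limma adjusted p under 0.05. The called differences are Mmp9 at 0.086 and 0.068, Mmp12 at -0.049 and Mmp19 at -0.15, and no gene is called for the difference of the IL4 responses.

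The remaining genes of extracellular proteolysis were taken from a list of 53, in 6 groups, of which 26 passed the filter. Between the hairpins without IL4, 17 of the 26 were called, 16 higher and 1 lower in shKDM1A cells, and with IL4, 20 were called, 18 higher and 2 lower. Their median differences were 0.13 and 0.18. IL4 called 19 of 26 in shGFP cells (10 higher, 9 lower; median -0.00052) and 18 in shKDM1A cells (10 higher, 8 lower; median 0.039). Over all tested genes the shares called were 38.2%, 40.7%, 26.9% and 27.1% in the same order, split about evenly between higher and lower, with medians of -0.0027, -0.0024, -0.00050 and -0.0025. The list was not matched to all tested genes for level, and weak genes have less room to differ on this scale. Adam8, Ctsl and Spp1 had 97.4%, 97.3% and 99.9% of the tested genes below them, and Cst7 and Mmp23 34.3% and 1.36%. The shares are therefore not evidence that the listed genes respond more than others of their level. The 2 comparisons of the hairpins share no library, and neither do the 2 comparisons of IL4, but each comparison of the hairpins shares a group with each comparison of IL4.

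The other MMPs and Timp4 were also at low levels or not detected, except Mmp24, which lay above all the genes described. Of 17, 8 were listed at 0 in every library (Mmp1a, Mmp1b, Mmp3, Mmp7, Mmp16, Mmp20, Mmp27 and Timp4) and 4 passed the filter. Mmp17, Mmp23 and Mmp28 stood at 2.00, 1.28 and 1.54 and were called in no comparison. Mmp24, a membrane-type MMP, was at 8.86 and was called once, higher by 0.092 (SE 0.030, limma adjusted p = 0.024) in shKDM1A cells with IL4. Its exons overlap those of BC029722, a non-coding gene on the other strand detected at 10.1 to 10.3, so the Mmp24 count may hold reads of that gene. BC029722 was also called higher in that comparison, by 0.093 (SE 0.028, limma adjusted p = 0.014). The part of BC029722 in the Mmp24 value was not tested.

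Of the 7 ADAM proteases, which shed receptors and cytokines from the cell surface, 5 passed the filter. Adam12 was listed at 0 and Adam19 stood at -2.27, the lowest detected level. Adam8, Adam9, Adam10, Adam15 and Adam17 averaged 11.7 to 13.1. Without IL4 all 5 tested were higher in shKDM1A cells, beside 38.2% of all tested genes called and 19.7% higher. With IL4 4 of the 5 were higher, beside 40.7% called and 20.9% higher, and Adam9 differed by 0.044 (limma adjusted p = 0.27). Adam8 went from 12.61 ± 0.01 to 13.49 ± 0.01 (SD, n = 4) without IL4, a difference of 0.87 (SE 0.021, limma adjusted p = 1.6e-14). With IL4 the difference of Adam8 was 0.85. Adam10 rose with IL4, from 12.04 ± 0.05 to 12.68 ± 0.03 in shGFP cells (0.64, SE 0.028) and by 0.65 in shKDM1A cells. Adam8, Adam9 and Adam15 also rose with IL4 in both, by 0.14 to 0.22, whereas Adam17 fell by 0.30 in shGFP cells and by 0.32 in shKDM1A cells.

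In the plasminogen system, which activates several MMP precursors, Plau, the urokinase, rose with IL4 by 0.38 in shGFP cells (SE 0.033, limma adjusted p = 2.2e-07) and by 0.15 in shKDM1A cells (SE 0.033, limma adjusted p = 0.0022). The difference of the IL4 responses of Plau was -0.22 (SE 0.047, limma adjusted p = 0.011). Between the hairpins, Plau differed by 0.052 without IL4 (SE 0.033, limma adjusted p = 0.25) and was lower in shKDM1A cells with IL4 (-0.17, SE 0.033, limma adjusted p = 0.00059). Plaur, the urokinase receptor, was higher in shKDM1A cells by 0.25 without and 0.32 with IL4.

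Of the cathepsins and cystatins, all 8 passed the filter, and 6 were called without IL4 (5 higher, 1 lower in shKDM1A cells) and 8 with IL4 (7 higher, 1 lower), against 38.2% and 40.7% of all tested genes. Ctsl, a lysosomal and secreted cysteine protease, went from 12.69 ± 0.04 to 13.52 ± 0.03 (SD, n = 4) without IL4, by 0.83 (SE 0.024, limma adjusted p = 1.6e-13), and differed by 0.86 with IL4. Ctss, an elastin-degrading cathepsin, was higher by 0.53 without and 0.45 with IL4. Cst7, a cystatin, was the gene that was lower (-0.22 and -0.20). With IL4, Ctsb fell by 0.40 in shGFP cells and by 0.38 in shKDM1A cells.

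Among the activators, anchors and clearance receptors of MMPs, 3 of the 5 tested (Bsg, Cd44 and Sdc4) were called higher in shKDM1A cells in both conditions, beside 38.2% and 40.7% of all tested genes called. Furin and Lrp1 were not called between the hairpins. Lrp1 differed by 0.017 without IL4 and by -0.19 with IL4 (SE 0.14, limma adjusted p = 0.94 and 0.30). Furin rose with IL4 by 0.33 in shGFP cells and by 0.34 in shKDM1A cells (limma adjusted p = 2.0e-07 and 1.7e-07). Sdc4, a cell surface proteoglycan, fell with IL4 by 0.43 in shGFP cells and by 0.47 in shKDM1A cells. Cd44, a hyaluronan receptor that can hold Mmp9 at the cell surface, had an IL4 response larger by 0.12 in shKDM1A cells (SE 0.031, limma adjusted p = 0.036). Lrp1, the receptor that clears MMPs and TIMPs, was 0.56 higher with IL4 in shGFP cells, but its libraries were widely spread (SE 0.14, limma adjusted p = 0.0060). In shKDM1A cells Lrp1 was 0.35 higher with IL4 and was not called (SE 0.14, limma adjusted p = 0.069). Reck, Lcn2 and A2m, which inhibit or stabilise MMPs, were at -2.27, at -2.09 and listed at 0.

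Of 8 matrix substrates only Spp1 (osteopontin) passed the filter. It was among the highest genes of the table at 15.4 and was higher in shKDM1A cells by 0.56 without IL4 and 0.74 with IL4 (SE 0.023 each, limma adjusted p = 9.2e-12 and 3.8e-13). Its IL4 difference was -0.25 in shGFP cells and -0.078 in shKDM1A cells, and these differed by 0.17 (SE 0.032, limma adjusted p = 0.0045). Fn1, Eln, Col1a2 and Col3a1 were listed at 0.

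**Figure D5:**
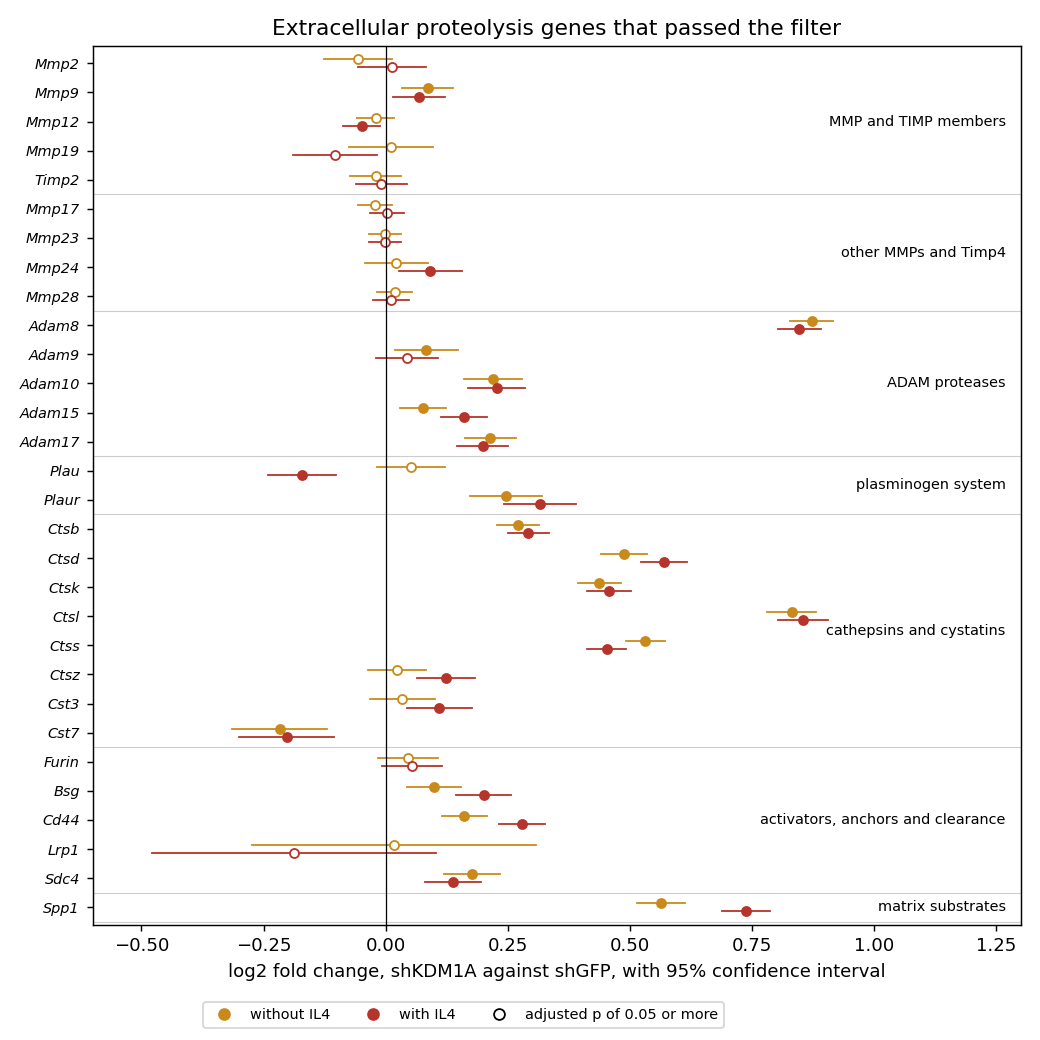
Difference in log2 value between shKDM1A and shGFP cells for genes of extracellular proteolysis that passed the filter, without IL4 (orange) and with IL4 (red), with 95% confidence intervals; filled points have a limma adjusted p under 0.05. The 5 MMP and TIMP genes at the top lie between -0.10 and 0.086, and Mmp24 reaches 0.092, while Adam8 (0.87 and 0.85) and Ctsl (0.83 and 0.86) lie furthest to the right. The genes differ in level, and differences of weak genes are understated on this scale.

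Osteoclast precursors raise Mmp9, and RAW264.7 cells can form osteoclasts, so the markers of that state were read beside the Mmp9 values. Of 7 osteoclast markers 6 passed the filter. Atp6v0d2, a proton pump subunit, averaged 7.78 in shGFP and 8.61 in shKDM1A cells without IL4, and Ctsk, the osteoclast collagenase, 5.77 and 6.20, both in the direction of Mmp9 and both called. Nfatc1, the master factor of osteoclasts, averaged 11.14 and 11.57 and was likewise called higher (0.43, limma adjusted p = 1.2e-08). Acp5, their acid phosphatase, averaged 6.90 and 6.96. Dcstamp (9.40 and 9.45) and Acp5 were not called, Ocstamp (6.00 and 5.84) was called lower, and Calcr, the calcitonin receptor, was at the lowest detected level of -2.27. With IL4 the differences were 0.46 for Atp6v0d2, 0.46 for Ctsk, 0.25 for Nfatc1 and 0.19 for Dcstamp, all called higher, -0.18 for Ocstamp, called lower, and -0.047 for Acp5, not called. Of all tested genes, 38.2% were called between the hairpins without IL4 (19.7% higher) and 40.7% with IL4 (20.9% higher). Whether the osteoclast markers have a part in the Mmp9 difference was not tested. Of the neutrophil markers, which would come with Mmp8 and Mmp9, Ly6g and S100a9 were listed at 0, Mpo, Camp and Elane stood at -2.27, -1.54 and -0.995, and S100a8, at 1.23, was the highest.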

How the data were processed

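RNA from 16 RAW264.7 libraries was sequenced. The authors aligned the reads to mm9 with HISAT2 and Bowtie2 and counted tags over exons on both strands with HOMER; DESeq2 is named in the submitters' processing notes. Per the file headers and values, the deposited values are on a log2 scale, moderated for low counts by a transformation not given in the sources used here. The columns of the authors' own comparisons (fold changes, p-values), the only ones for bone-marrow-derived macrophages, were not used. Transcript lengths are those deposited.

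A group-means model was fitted to all 16 libraries with limma 3.58.1 in R 4.3.3, over the 12905 genes that reached 1 in 4 or more libraries, and p-values were adjusted by Benjamini and Hochberg's method (threshold 0.05). Tests were checked on simulated data. No 2 libraries were identical. Promoter windows were RefSeq's (GRCm38.p6), gene overlaps GENCODE's (mm9). Alternatives were other filters, scalings, variance models, a replicate block, only the groups compared, and leaving out each library. The members and the lists, and the rule for named genes (all members, Kdm1a, IL4 check genes, and up to 4 called list genes of largest change per comparison, or all with a change of at least 1), were chosen with earlier results of these data known; other genes were named after their values were seen. A gene of the proteolysis list is counted in its totals but not reported here by itself.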

Additional observations from a re-analysis of the deposited data

Results flagged for a closer look

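In the groups of 4 libraries, a library was taken as apart where its gap to the nearest of the others passed Dixon's critical value for the share of the group's whole range. For normally spread values chance gives this in about 1 in 20 groups. That rate does not hold for weakly detected genes such as Mmp8 and Mmp13, whose libraries bunch at nearly the same value. There a slight shift of 1 library gives a gap close to the whole range, so the count below is not evidence of an excess. Of 36 groups of the MMP and TIMP genes, 4 were of this kind, and all involved a replicate 3 with IL4. In shKDM1A cells with IL4, replicate 3 was the high library for Mmp8 (-0.3847 against -0.3917 to -0.3915, gap over range 0.975), for Mmp12 (1.537 against 1.516 to 1.517, 0.967) and for Mmp13 (-2.0833 against -2.0859 to -2.0858, 0.965). That library had 24525790 tags, and the other 3 of its group 17554721 to 18689436.5; the part of depth was not tested. In shGFP cells with IL4, replicate 3 was the high library for Mmp13 (-2.0832 against -2.0864 to -2.0860, 0.889), at 21726330.5 tags, within the range of its group. All 3 genes lie in the chromosome 9 locus and are weakly detected, and only the Mmp12 value touches a call: without replicate 3 of shKDM1A with IL4, the Mmp12 difference between the hairpins with IL4 stayed called.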

How the results depend on the processing

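Of 550 alternative values of the 25 differences of the 5 tested genes, 528 kept the call and its side, 16 lost a call and 6 gained one, and no called difference changed sign. The changed calls were those of Mmp9, Mmp12 and Mmp19 between the hairpins with IL4. There the number of genes called was 2 as reported (Mmp9 and Mmp12), 0 with only the groups compared in the fit, and 0 to 2 without 1 library. It was 1 (Mmp19) with a value of at least 5 required, where Mmp9 and Mmp12 were not tested, and 1 (Mmp19) with the replicate block. After median centring it was 1 (Mmp9). The replicate numbers do not pair the libraries (same-number correlations from -0.343 to 0.273; 6 of 16 libraries correlated best with their own number); with the replicate block Mmp9 and Mmp12 had adjusted p = 0.051 and 0.067, and Mmp19 0.033. Without IL4, the stricter filter called 0 in place of 1, since Mmp9 was then no longer tested. Requiring an absolute difference over 0.5 left 0 of these genes called in every comparison, and of the proteolysis list 4 and 5 between the hairpins without and with IL4, 2 and 2 for IL4 in shGFP and shKDM1A cells, and 0 for the difference of the responses. Quantile normalization brought Mmp19 between the hairpins with IL4 past the threshold (-0.13, limma adjusted p = 0.023), besides Mmp9 and Mmp12. Median centring moved a library by at most 0.012. Depth and moderation limit what Mmp8, Mmp13, Mmp14, Timp1 and Timp3 can show.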
